A study of Mus musculus with 20 samples.

Results

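Basal and luminal cells that both expressed a mutant PIK3CA transgene were compared on 6 of the 20 Affymetrix mouse arrays of the study. The 6 arrays were chosen by their titles and not by any measured value: 3 held GFP-positive cells of the basal gate and 3 held GFP-positive cells of the Sca1-negative luminal gate, all from K8-creERT2/PIK3CA H1047R mice. H1047R is an activating change in the catalytic subunit of phosphoinositide 3-kinase (PI3K), and GFP marked the cells in which the transgene was on. The comparison asked which differences between the 2 lineages were present among transgene-expressing cells. Of the other arrays, 6 held the same gates of K8-creERT2 control mice (3 basal and 3 Sca1-negative luminal arrays, sorted as GFP-negative cells), and 3 held GFP-negative cells of the basal gate from the mutants. Both genotypes were on a mixed FVB/CD-1 background, carried the tamoxifen-inducible Cre under keratin 8 control and received tamoxifen 4 weeks before the sort. The ages of the mice are not given in the sources used here. Each array held amplified RNA of 2000 sorted CD45-negative cells from glands pooled over 2 to 3 estrus-synchronized mice, and the 3 arrays of a group came from 3 independent sortings. The basal gate was CD24 low and Sca1 negative, and the luminal gate was CD24 high and Sca1 negative. Basal and luminal cells of a genotype may have come from the same pools, which the labels do not state. With 3 arrays in a group, precision is limited throughout.

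The mammary duct has an inner layer of luminal cells, which include the precursors of milk-secreting cells and hormone-sensing cells, and an outer layer of basal cells. Basal cells rest on the basement membrane, carry keratins 5 and 14 and the transcription factor p63, and as myoepithelial cells contract to eject milk. Keratin 8, whose regulatory sequence drives the Cre here, is a keratin of the luminal layer. PI3K turns growth factor signals into a membrane lipid that recruits AKT, and FOXO transcription factors are held out of the nucleus when AKT is active.

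Levels are the deposited log2 values, and differences are basal minus luminal on the log2 scale with their standard error (SE) from a linear model (limma), 3 arrays in each group. A gene is said to be called when its Benjamini-Hochberg adjusted p over all 19937 genes was under 0.05. The 20 array medians lay between 3.662 and 3.797. Replicate 2 of the GFP-positive basal cells had the narrowest spread of values (SD over probe sets 1.706, against up to 1.882 on the other arrays). Some of the counts that rest on it are therefore also given without it. In bulk RNA of sorted cells, fewer cells of a type and less RNA per cell cannot be told apart.

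The sort genes were examined first. Ptprc, which encodes CD45, lay at 3.54, 3.83 and 3.50 in the GFP-positive basal cells and at 3.42, 3.53 and 3.39 in the luminal cells, near the array medians. Krt8 lay at 11.17, 10.54 and 10.86 in basal cells and at 11.84, 11.94 and 11.93 in luminal cells, so the basal arrays were lower but still near the top of the range of array values (difference -1.05 ± 0.22, adjusted p = 0.00575). Cd24a, which encodes the antigen that separates the gates, was at 10, 10.24 and 10.50 against 10.67, 10.60 and 10.50, and was not called (adjusted p = 0.195). Pik3ca was at 6.57, 6.98 and 5.97 against 6.77, 6.83 and 6.30 and was not called (-0.12 ± 0.26, adjusted p = 0.881). Whether its probe set detects the transgene is not given in the sources used here. Ly6a, the gene of Sca1, had no probe set paired with it alone.

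Transgene-expressing basal and luminal cells differed in 1911 of 19937 genes (9.59%). Of these, 883 (4.43% of all genes) were higher in basal cells and 1028 (5.16%) in luminal cells. A difference of at least 2 on the log2 scale separated 216 called genes that were higher in basal cells and 141 that were higher in luminal cells. The median difference over all genes was 0.005. The 6 arrays did not overlap between the groups in 5032 genes (25.2%), and in 1884 of the 1911 called genes. Without basal replicate 2 the call count was 1562, with 863 genes higher in basal and 699 higher in luminal cells.

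Contractile genes of myoepithelial cells were among the largest differences. Of 16 measured genes of smooth muscle contraction, 12 were called higher in basal cells and none in luminal cells, against 4.43% and 5.16% of all genes, and the median difference was 2.75. Myl9, the regulatory light chain of smooth muscle myosin, had the largest difference of all called genes. It lay at 11.44, 10.78 and 11.10 in basal cells and at 4.15, 4.44 and 5.0 in luminal cells (6.58 ± 0.26, a 95.5-fold difference, adjusted p = 3.14e-10). The myosin heavy chain Myh11 followed with 9.93, 10.01 and 9.87 against 4.25, 4.32 and 4.11 (5.71 ± 0.15, adjusted p = 1.31e-12). Smooth muscle actin, Acta2, was at 11.15, 11.13 and 10.99 against 5.20, 5.88 and 5.21 (5.66 ± 0.32, adjusted p = 6.77e-09). For these genes every basal array stood several log2 units above every luminal array.

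Other contractile genes differed by less, and some did not pass the test. Calponin (Cnn1) differed by 4.94 ± 0.36, enteric smooth muscle actin (Actg2) by 4.38 ± 0.20 and transgelin (Tagln) by 4.10 ± 0.28. Tropomyosin Tpm2 differed by 3.11 ± 0.18, and Tpm1, which is also expressed outside muscle, by 0.94 ± 0.10. The receptor for oxytocin, Oxtr, the hormone that triggers milk ejection, lay at 7.23, 6.15 and 5.83 in basal cells and at 3.74, 3.43 and 3.91 in luminal cells (2.71 ± 0.33, adjusted p = 4.2e-05). Leiomodin (Lmod1) lay at 4.72, 4.01 and 4.32 against 4.13, 3.98 and 3.83 and was not called (adjusted p = 0.387), while in controls it was called at 2.32. Srf, the serum response factor, which binds the CArG boxes of smooth muscle genes, had a difference of -1.0 ± 0.37 (adjusted p = 0.121), and its partner Myocd one of 0.06 (adjusted p = 0.825). The small difference of smoothelin (Smtn, 0.74) lost its call without basal replicate 1 (adjusted p = 0.089), basal replicate 3 (0.0785), luminal replicate 1 (0.083) or luminal replicate 3 (0.0547).

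The promoter of Myl9 is shown because this gene led the comparison and because its start region holds a CArG box, the site type that serum response factor binds. The sequence is from RefSeq (GRCm38.p6), chr2:156775214-156775463 on the plus strand, the 250 bases before the gene's start, with the CArG box in capitals.
Myl9: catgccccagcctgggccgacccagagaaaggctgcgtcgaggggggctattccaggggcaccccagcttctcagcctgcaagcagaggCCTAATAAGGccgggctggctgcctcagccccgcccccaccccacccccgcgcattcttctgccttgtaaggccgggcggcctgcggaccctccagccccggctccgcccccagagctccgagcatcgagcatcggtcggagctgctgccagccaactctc
The box ran from -161 to -152, counted from the gene's start. Of 12 contractile genes with a promoter window of 300 bases (250 before to 50 after the start) in the table used, Myl9 and Srf held a CArG box. Over all genes with a window, 488 of 27025 held a box (1.81%). It was held by 13 of 670 genes called higher in basal cells (1.94%) and 17 of 787 called higher in luminal cells (2.16%). The CArG pattern equals its own reverse complement, so both strands were covered by the same search. These shares describe the letters in the windows only.

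Most basal keratins and lineage regulators were higher in basal cells. Of 13 measured, 10 were called higher in basal cells and none in luminal cells (4.43% and 5.16% of all genes), with a median difference of 2.07. Krt5 lay at 10.84, 10.65 and 10.86 in basal cells and at 5.72, 5.99 and 5.37 in luminal cells (5.09 ± 0.25, adjusted p = 1.37e-09). Krt15 differed by 4.32 ± 0.28, Krt17 by 4.13 ± 0.27 and Krt16 by 2.07 ± 0.37. The basal excess of Krt16 was not present in controls, at 4.65, 4.23 and 4.48 in basal and 4.95, 5.44 and 6.23 in luminal cells. In GFP-negative mutant basal cells Krt16 lay at 4.49, 4.84 and 4.58, and its difference between genotypes was called (3.15). Trp63, the gene of p63, was at 9.39, 9.15 and 8.97 against 4.54, 4.92 and 4.61 (4.48 ± 0.22, adjusted p = 1.43e-09). Snai2, a zinc finger repressor of basal cells, was at 9.20, 9.03 and 9.21 against 4.52, 4.72 and 4.85 (4.45 ± 0.32, adjusted p = 1.19e-07). P-cadherin (Cdh3) differed by 3.78 ± 0.18 and the transcriptional regulator Id4 by 1.81 ± 0.20.

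Krt14 was an exception among the keratins. It lay at 10.19, 10.17 and 10.07 in basal cells and at 8.59, 8.76 and 8.57 in luminal cells, so the arrays did not overlap, but the difference of 1.51 ± 0.46 missed the threshold (adjusted p = 0.0518). The 3 control luminal arrays lay at 7.70, 5.39 and 8.12, a wider spread that enters the shared error. In controls Krt14 was called at 3.42, and the difference between genotypes was not called (adjusted p = 0.225). Egfr (0.15, adjusted p = 0.83) and Procr (0.60, adjusted p = 0.431) were also not called in the mutants. Mef2c, at 0.74, lost its call without basal replicate 3 (adjusted p = 0.0805), luminal replicate 1 (0.0696) or luminal replicate 2 (0.0608). Lgr5 (1.08) was also among the 10 called, and is counted again below with the Wnt receptors. It lost its call without luminal replicate 1 (adjusted p = 0.0693).

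Many laminins, collagens and integrins of the basement membrane zone were higher in basal cells. Of 23 measured, 14 were called higher in basal cells, none in luminal cells (4.43% and 5.16% of all genes) and 9 in neither direction, with a median difference of 0.91. Lama3, a chain of laminin 332, was at 8.36, 8.2 and 7.98 in basal cells and at 3.88, 4.02 and 3.98 in luminal cells (4.22 ± 0.17, adjusted p = 3.14e-10). Col17a1, the hemidesmosome collagen, was at 8.46, 7.68 and 8.08 against 4.28, 4.41 and 4.34 (3.73 ± 0.20, adjusted p = 3.11e-09). Lamb1 differed by 3.00 ± 0.24, perlecan (Hspg2) by 2.74 ± 0.23, Lamc1 by 2.73 ± 0.22 and Lama1 by 2.36 ± 0.29. The integrin chains differed less: Itga3 by 1.60 ± 0.24 and Itga6 by 0.75 ± 0.11. Itgb1, at 0.45 ± 0.13, was no longer called without any single one of 5 of the 6 arrays, with adjusted p between 0.073 (without basal replicate 2) and 0.167 (without luminal replicate 1). Itgb4 (0.48, adjusted p = 0.148) and Lamb3 (0.91, adjusted p = 0.0693) did not pass the test.

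**Figure D1:**
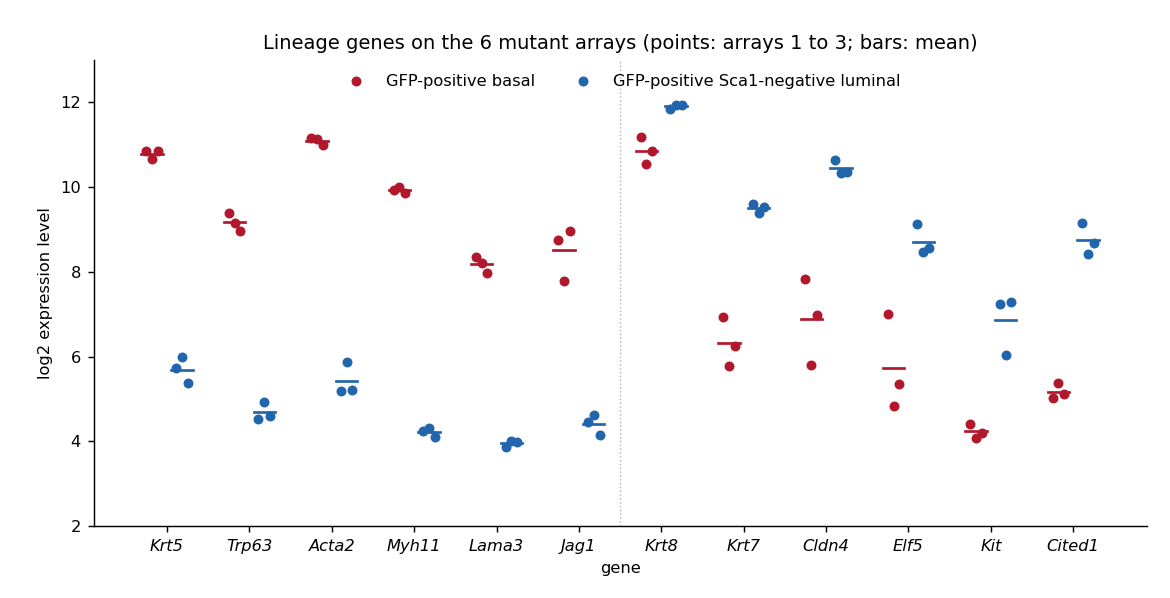
Log2 expression level (y axis) of 12 lineage genes (x axis) on the 6 mutant arrays; red points are the 3 GFP-positive basal arrays, blue points the 3 GFP-positive Sca1-negative luminal arrays, and bars their means. The 2 colours do not overlap for any gene shown; Krt8 has the smallest gap, with basal arrays at 10.54 to 11.17 and luminal arrays at 11.84 to 11.94.

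Several secreted and matrix proteins stood among the 15 genes with the largest basal excess. Versican (Vcan), a matrix proteoglycan, was at 10.88, 10.71 and 10.90 in basal cells and at 4.47, 4.94 and 4.88 in luminal cells (6.06 ± 0.33, adjusted p = 4.55e-09). Periostin (Postn) was at 10.71, 10.54 and 10.65 against 3.87, 6.38 and 5.12 (5.51 ± 0.43, adjusted p = 3.15e-07), with the luminal arrays widely spread. Biglycan (Bgn) differed by 5.47 ± 0.31, matrilin (Matn2) by 5.35 ± 0.33, the chemokine Cxcl14 by 5.15 ± 0.24 and the IGF-binding protein Igfbp3 by 5.09 ± 0.33. Follistatin (Fst), which binds activin, differed by 5.03 ± 0.47, and Sostdc1, a secreted inhibitor of BMP and Wnt signals, by 5.0 ± 0.51. The remaining genes of the 15 were the membrane protein Emb (5.55 ± 0.29), Scrg1 (5.49 ± 0.29) and the cyclophilin Ppic (5.04 ± 0.11). In the genes of this paragraph the smallest fold difference was 32.1, for Sostdc1.

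Most luminal keratins and cell junction genes were higher in the luminal cells. Of 20 measured, 16 were called higher in luminal cells and none in basal cells, against 5.16% and 4.43% of all genes, and the median difference was -1.46. Krt7 lay at 6.93, 5.78 and 6.25 in basal cells and at 9.59, 9.38 and 9.54 in luminal cells (-3.19 ± 0.34, adjusted p = 9.35e-06). The tight junction protein claudin 4 (Cldn4) lay at 7.84, 5.81 and 6.98 against 10.64, 10.34 and 10.35 (-3.57 ± 0.69, adjusted p = 0.00263). Cldn7 differed by -2.51 ± 0.26, Cldn3 by -2.43 ± 0.29, occludin (Ocln) by -2.33 ± 0.39 and Krt19 by -2.33 ± 0.38. E-cadherin (Cdh1, -1.66 ± 0.19), Krt18 (-1.25 ± 0.21) and Epcam (-1.10 ± 0.13) had high levels in both groups and smaller differences. Gata3, a regulator of the luminal lineage, was at 8.63, 7.83 and 8.37 against 8.75, 8.11 and 8.54 and was not called (adjusted p = 0.835). Grhl2 (-0.42, adjusted p = 0.629) and Ovol2 (-0.15, adjusted p = 0.585) were not called either.

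The basal arrays differed among themselves in these luminal genes. The mean level of the 20 genes was 7.25, 6.56 and 6.98 on GFP-positive basal replicates 1, 2 and 3, against 8.52 to 8.57 on the luminal arrays. On GFP-negative mutant basal arrays it was 6.63 to 6.71 and on control basal arrays 6.22 to 6.73. Replicates 1 and 3 of the GFP-positive basal cells were thus above every other basal array, and below every luminal array. The part of this in the results was not tested. With replicate 2 left out, 16 of the 20 were still called higher in luminal cells.

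Most genes of luminal progenitors were higher in luminal cells as well: 8 of 11 measured were called and none the other way (5.16% and 4.43% of all genes), with a median difference of -2.35. The receptor Kit lay at 4.41, 4.09 and 4.21 in basal cells and at 7.24, 6.04 and 7.28 in luminal cells (-2.62 ± 0.24, adjusted p = 2.38e-06). Elf5, a transcription factor of the secretory lineage, lay at 7.01, 4.83 and 5.36 against 9.12, 8.47 and 8.55 (-2.98 ± 0.43, adjusted p = 0.000223), with basal replicate 1 well above the other basal arrays. Lactoferrin (Ltf) differed by -4.19 ± 0.31, Cd14 by -2.95 ± 0.35, the retinaldehyde dehydrogenase Aldh1a3 by -2.71 ± 0.19 and Elf3 by -2.35 ± 0.46. Without basal replicate 2 the count was 6, since Itgb3 (adjusted p = 0.108) and Gabrp (adjusted p = 0.0886) were no longer called. Ehf, an ETS factor of epithelia, lay at 8.36, 8.23 and 7.54 in GFP-positive basal cells and at 9.58, 9.62 and 9.75 in luminal cells, and was not called (-1.61 ± 0.61, adjusted p = 0.132). Its control basal arrays lay at 5.05, 3.89 and 4.31, and the difference between genotypes was not called (adjusted p = 0.0709). The GFP-negative basal arrays lay at 4.91, 8.36 and 5.26, a wide spread that enters the shared error of both tests. The mutant basal and luminal arrays of Ehf did not overlap. Lcn2 was high in both groups (11.45 to 11.74 and 12.06 to 12.15) and was not called (adjusted p = 0.126).

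Other genes led the luminal side. Amtn, which encodes the enamel matrix protein amelotin, had the largest luminal excess, with 4.73, 4.09 and 4.01 in basal cells and 9.87, 10.36 and 9.85 in luminal cells (-5.75 ± 0.27, a 53.9-fold difference, adjusted p = 9.29e-10). The secreted glutathione peroxidase Gpx3 was at 4.03, 3.16 and 3.96 against 9.09, 8.95 and 8.62 (-5.17 ± 0.34, adjusted p = 4.35e-08). The chemokine Cxcl15 differed by -4.77 ± 0.59, AW112010 by -4.56 ± 0.56, the cornified envelope gene Sprr1a by -4.14 ± 0.91 and the kallikrein protease gene Klk10 by -3.97 ± 0.50. Fam25c (-3.97 ± 0.44), Dkkl1 (-3.74 ± 0.30), the angiogenin-family ribonuclease Ang5 (-3.71 ± 0.41), the tetraspanin Tspan13 (-3.60 ± 0.34) and the nucleoside transporter Slc28a3 (-3.53 ± 0.34) followed. For each of these 11 genes the 6 arrays did not overlap, as the rule for naming them required.

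Hormone-sensing genes differed less. Of 9 measured, 4 were called higher in luminal cells and none in basal cells (5.16% and 4.43% of all genes), with a median difference of -0.52. Cited1, a transcriptional coregulator, lay at 5.02, 5.38 and 5.13 in basal cells and at 9.14, 8.42 and 8.67 in luminal cells (-3.57 ± 0.37, adjusted p = 8.85e-06). The progesterone receptor Pgr lay at 3.65, 3.37 and 3.70 against 4.95, 5.05 and 4.84 (-1.37 ± 0.30, adjusted p = 0.00665). The estrogen receptor Esr1 (-0.37, adjusted p = 0.54) was not called. Foxa1 (-1.38 ± 0.38, adjusted p = 0.0275) lost its call without basal replicate 2 (adjusted p = 0.121), luminal replicate 1 (0.0961) or luminal replicate 3 (0.0851). Prom1 (-1.08 ± 0.28, adjusted p = 0.0186) lost it without basal replicate 1 (0.0776) or 3 (0.0773) or luminal replicate 1 (0.0807) or 2 (0.0966). The count was 2 without luminal replicate 1, where both were lost, and 3 without any other of the 6 arrays. The gate compared here is the Sca1-negative one, and Sca1-positive luminal cells were not part of this comparison.

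The casein genes Csn2 and Csn1s1 were high in transgene-expressing cells of both lineages. Beta-casein (Csn2) lay at 11.13, 11.00 and 10.92 in basal cells and at 11.78, 11.60 and 11.61 in luminal cells, and the difference of -0.65 ± 1.09 was not called (adjusted p = 0.844). Alpha-casein (Csn1s1) lay at 10.40, 10.41 and 9.74 against 11.41, 11.08 and 11.07 (-1.0 ± 0.74, adjusted p = 0.556). In GFP-negative basal cells of the same genotype Csn2 was at 8.01, 5.96 and 8.95, and in control basal cells at 8.08, 5.35 and 4.08. Of 12 milk genes measured, 2 were called higher in luminal cells and none in basal cells (5.16% and 4.43% of all genes): butyrophilin (Btn1a1, -2.97 ± 0.31, adjusted p = 7.2e-06) and whey acidic protein (Wap). Wap lay at 8.32, 5.42 and 6.01 against 9.97, 8.97 and 9.29 (-2.83 ± 0.61, adjusted p = 0.00602), the basal arrays being widely spread. The mean level of the 12 genes was 7.25, 6.76 and 6.94 on the basal and 8.19, 7.9 and 8.12 on the luminal arrays. With the model fitted to the 6 mutant arrays alone, where the wide spread of the control arrays does not enter, 6 of the 12 were called higher in luminal cells, and Wap was not (adjusted p = 0.0718).

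The start regions of both casein genes are shown because these genes were near their highest level in both lineages and hold the same type of signal transducer (STAT) site, TTCNNNGAA. Each sequence holds the bases from -120 to -61, counted from the gene's start, from RefSeq (GRCm38.p6), at chr5:87666088-87666147 on the plus strand for Csn1s1 and chr5:87699486-87699545 on the minus strand for Csn2. The capitals mark the match.
Csn1s1: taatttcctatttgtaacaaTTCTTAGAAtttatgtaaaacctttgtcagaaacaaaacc
Csn2: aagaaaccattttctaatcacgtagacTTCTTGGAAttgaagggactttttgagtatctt
The match was found in 4 of 8 milk genes with a window of 300 bases and in 2582 of 27025 genes in all (9.55%). It was present in 60 of 670 genes called higher in basal cells (8.96%) and in 67 of 787 called higher in luminal cells (8.51%). The pattern equals its own reverse complement, and no site use was measured.

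The Notch ligands Jag1, Dll1 and Jag2 were higher in basal cells and the Notch target Hes1 in luminal cells. Of 22 Notch pathway genes measured, 3 were called higher in basal and 3 in luminal cells (4.43% and 5.16% of all genes), with a median difference of 0.03. The ligand Jag1 was at 8.76, 7.79 and 8.96 in basal cells and at 4.47, 4.62 and 4.15 in luminal cells (4.09 ± 0.31, adjusted p = 2.91e-07). In controls Jag1 was at 5.7, 6.23 and 6.34 against 4.82, 5.04 and 4.97, and its difference between genotypes was called (2.94). The ligands Dll1 (2.26 ± 0.22) and Jag2 (1.43 ± 0.29) were higher in basal cells too. Hes1, a target that Notch switches on, was at 7.20, 7.5 and 7.04 against 8.76, 8.76 and 8.69 (-1.49 ± 0.18, adjusted p = 4.2e-05). Notch3 (-0.50) and the feedback inhibitor Nrarp (-0.59) were called higher in luminal cells, and both lost the call without luminal replicate 1 (adjusted p = 0.0743 and 0.0527) or luminal replicate 3 (0.0754 and 0.0929); Nrarp also lost it without basal replicate 2 (0.053). The receptors Notch1 (-0.20, adjusted p = 0.886) and Notch2 (-0.90, adjusted p = 0.0822) were not called.

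Some Wnt receptors and inhibitors were higher in basal cells, and none of the 10 genes listed as Wnt targets passed the test. Of 24 receptors and inhibitors, 8 were called higher in basal cells, none in luminal cells (4.43% and 5.16% of all genes) and 16 in neither direction, with a median difference of 0.54. The secreted inhibitor Sfrp1 was at 9.79, 8.98 and 9.64 in basal cells and at 4.66, 4.55 and 4.92 in luminal cells (4.76 ± 0.21, adjusted p = 6.29e-10). The R-spondin receptor Lgr4 differed by 2.35 ± 0.36, and the frizzled receptors Fzd7, Fzd2 and Fzd3 by 1.78 ± 0.28, 1.71 ± 0.25 and 1.38 ± 0.29. Lgr5, a related receptor, was at 4.6, 4.05 and 5.55 against 3.48, 3.72 and 3.78 (1.08 ± 0.27, adjusted p = 0.0156), and it was not called without luminal replicate 1 (adjusted p = 0.0693) or in a fit to the 6 arrays alone (0.149). Of 11 ligands, Wnt10a (0.82 ± 0.18), Wnt6 (0.68 ± 0.13) and Wnt5a (1.0 ± 0.26) were higher in basal and Wnt5b (-1.52 ± 0.27) in luminal cells. The call of Wnt5a was lost without basal replicate 2 (adjusted p = 0.0928) or 3 (0.0668) or luminal replicate 1 (0.0886) or 3 (0.0588). None of 10 Wnt targets was called by limma in either direction, and 0 had an unadjusted p under 0.05. Their mean level was 3.96 to 4.12 on the basal and 3.76 to 3.94 on the luminal arrays, near the array medians. In controls 4 of the 10 were called higher in basal cells, and 4 for GFP-negative mutant basal cells (4.67% and 4.37% of all genes). For none of the 10 was the difference between genotypes called. Axin2, the most used reporter of the pathway, was at 4.07, 4.12 and 4.10 against 4.07, 4.14 and 3.86 (0.07 ± 0.15, adjusted p = 0.884).

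Genes of epithelial-mesenchymal transition were divided. Of 12 measured, 6 were called higher in basal cells and none in luminal cells (4.43% and 5.16% of all genes), with a median difference of 0.47. Sparc, a matrix-binding protein, was at 11.50, 11.38 and 11.59 against 5.64, 7.23 and 7.49 (4.70 ± 0.38, adjusted p = 5.5e-07). Vimentin (Vim) differed by 3.18 ± 0.21, and Snai2, described above as a basal gene, was counted here too. N-cadherin (Cdh2) was at 6.13, 5.43 and 6.85 in GFP-positive basal cells and at 3.05, 3.20 and 2.96 in luminal cells (3.06 ± 0.24, adjusted p = 3.15e-07). Zeb1 (1.09 ± 0.17) and Cdh11 (0.76 ± 0.14) had smaller differences. Snai1 (-0.06, adjusted p = 0.942), Twist1 (-0.01, adjusted p = 0.989), Zeb2 (0.02, adjusted p = 0.963) and Fn1 (-0.04, adjusted p = 0.928) were not called.

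Ligands and receptors of the ERBB family fell on both sides. Of 13 measured, 2 were called higher in basal and 2 in luminal cells (4.43% and 5.16% of all genes), with a median difference of -0.02. Neuregulin (Nrg1), the ligand of ERBB3 and ERBB4, was at 9.09, 8.98 and 9.29 in basal cells and at 5.27, 4.80 and 5.35 in luminal cells (3.98 ± 0.45, adjusted p = 2.11e-05). Its receptor Erbb3 was at 4.53, 4.34 and 4.76 against 7.37, 7.60 and 7.16 (-2.83 ± 0.43, adjusted p = 0.000341). The ligand Ereg was higher in basal cells (1.64 ± 0.30) and Hbegf in luminal cells (-2.39 ± 0.27). Egfr, as given above, and Erbb2 (-0.81, adjusted p = 0.0577) were not called.

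Among 22 axon guidance cues and their receptors, which also shape the bilayered duct, 9 were called higher in basal and 2 in luminal cells (4.43% and 5.16% of all genes), with a median difference of 0.25. Slit3 was at 8.04, 7.40 and 7.36 against 4.40, 4.18 and 4.6 (3.21 ± 0.39, adjusted p = 3.81e-05), and the SLIT receptor Robo1 at 6.82, 6.79 and 7.03 against 4.30, 4.37 and 4.01 (2.66 ± 0.35, adjusted p = 9.53e-05). Sema3c differed by 2.02 ± 0.25, the semaphorin receptor Plxna1 by 1.37 ± 0.27 and the netrin receptor Neo1 by 1.29 ± 0.22. Netrin 1 (Ntn1, -1.32 ± 0.24) and the ephrin receptor Epha2 (-0.97 ± 0.20) were higher in luminal cells. The basal count ranged from 6 to 10 when 1 array was left out. It was 6 without basal replicate 3, where Ntn4 (adjusted p = 0.143), Efnb1 (0.147) and Robo2 (0.0586) lost their calls. Ntn4 and Efnb1 also lost them without basal replicate 1 (0.157 and 0.116) or luminal replicates 1 (0.138 and 0.116), 2 (0.0902 and 0.0751) or 3 (0.101 and 0.0703).

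Of 19 components of the PI3K pathway measured, 4 were called higher in basal and 5 in luminal cells (4.43% and 5.16% of all genes), with a median difference of -0.11. The regulatory subunit gene Pik3r1 was at 9.62, 9.67 and 9.73 in basal cells and at 8.31, 8.16 and 7.75 in luminal cells (1.60 ± 0.21, adjusted p = 8.92e-05). Pik3r3 differed by 1.11 ± 0.21 in the same direction. Tsc1, a brake on mTOR, was at 4.31, 4.11 and 4.81 against 5.35, 5.81 and 5.65 (-1.19 ± 0.19, adjusted p = 0.000501), and the AKT phosphatase gene Phlpp2 differed by -0.61 ± 0.12. The luminal count was 3 without basal replicate 1, basal replicate 2, luminal replicate 1 or luminal replicate 3, and 2 without luminal replicate 2. The kinase gene Pdpk1 lost its call in each of these fits (adjusted p = 0.0601, 0.228, 0.087, 0.169 and 0.0831 in that order). Phlpp1 lost it without basal replicate 1 (0.111), basal replicate 2 (0.155), luminal replicate 2 (0.0504) or luminal replicate 3 (0.171). The catalytic subunit gene Pik3cb lost it without basal replicate 3 (0.0615), luminal replicate 1 (0.0649) or luminal replicate 2 (0.0538). On the basal side, Pik3r2 (1.16 ± 0.33) lost it without any of basal replicates 1 (0.136) and 3 (0.0921) and luminal replicates 1 (0.104), 2 (0.0796) and 3 (0.104). Akt1 (-0.21, adjusted p = 0.859) and Mtor (0.17, adjusted p = 0.761) were not called.

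Genes linked to FOXO factors were called in both directions, 3 of 14 higher in basal and 3 higher in luminal cells (4.43% and 5.16% of all genes), with a median difference of 0.15. Sestrin 3 (Sesn3) was at 8.73, 8.76 and 8.50 against 6.82, 5.98 and 5.88 (2.44 ± 0.35, adjusted p = 0.000178). Trib2 (-1.55 ± 0.30) and Klf6 (-0.93 ± 0.15) were higher in luminal cells. The basal count was 1 without basal replicate 1 or without luminal replicate 1 or 3, where Bcl6 (adjusted p = 0.0805, 0.0628 and 0.0865) and Ccng2 (0.184, 0.0937 and 0.0713) lost their calls. Ccng2 also lost its call without basal replicate 3 (0.0533) or luminal replicate 2 (0.145). The luminal count was 2 to 3 with 1 array left out. Insr, higher in luminal cells, lost its call without basal replicate 1 (adjusted p = 0.0886) or 3 (0.0517). It also lost it without luminal replicate 1 (0.0747), 2 (0.0695) or 3 (0.055).

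Serum amyloid genes were high in both lineages, and the alarmin Il33 was higher in basal cells. Of 11 measured, 3 were called higher in basal and 2 in luminal cells (4.43% and 5.16% of all genes), with a median difference of -0.82. The luminal ones were Saa3 and Amtn, which is described above. The serum amyloid gene Saa1 was at 9.78, 8.88 and 9.13 in basal cells and at 10, 10.40 and 10.25 in luminal cells, and was not called (-0.95 ± 0.47, adjusted p = 0.291). Saa1 was at 2.79 to 2.97 on the control basal arrays and at 2.82 to 3.32 on the control luminal arrays. Saa2 (-1.20, adjusted p = 0.0647), the neutrophil-type calcium-binding protein S100a8 (-0.82, adjusted p = 0.484) and Chil1 (-0.88, adjusted p = 0.522) were not called either. By contrast the alarmin Il33 was at 8.93, 8.39 and 8.43 against 4.93, 4.66 and 4.79 (3.79 ± 0.31, adjusted p = 5.54e-07), and the cytokine Il24 at 8.60, 9.39 and 7.96 against 5.90, 4.61 and 6.29 (3.05 ± 0.36, adjusted p = 3.13e-05). Saa3 (-1.60, adjusted p = 0.0488) lost its call without basal replicate 2 (adjusted p = 0.244) or 3 (0.119) or luminal replicate 2 (0.132) or 3 (0.232). Slpi (0.81) lost it without basal replicate 3 or luminal replicate 1 (adjusted p = 0.0645 in both).

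Metabolic genes were called at shares to be read against 9.59% of all genes, and no cell cycle gene was called. Of 12 glycolysis genes, Ldha was the only one called (higher in luminal cells, -0.80 ± 0.20, adjusted p = 0.0177), and it lost the call without basal replicate 2 (adjusted p = 0.0994) or 3 (0.056) or luminal replicate 1 (0.0645) or 3 (0.0525). Of 14 fatty acid synthesis genes, the malic enzyme Me1 (-1.62 ± 0.32) and the desaturase Fads2 (-1.25 ± 0.28) were higher in luminal cells. Of 14 cholesterol synthesis genes, Fdft1 (-0.81 ± 0.18) was, and with the mean of its probe sets in place of the brightest it was at -0.43 and not called (adjusted p = 0.186). Of 18 cell cycle genes none was called by limma, 4 had an unadjusted p under 0.05, and Mki67 was at a difference of 0.15 (adjusted p = 0.915). The mean level of the 18 was 4.49, 4.27 and 5.33 on the basal and 4.56, 4.41 and 4.95 on the luminal arrays. Replicate 3 was thus highest in both groups, and this spread within groups limits the test. Of 14 immediate early and stress genes, which respond to tissue dissociation, Egr2 (1.86 ± 0.35, adjusted p = 0.00196) and Fos (0.73 ± 0.20, adjusted p = 0.0332) were higher in basal cells. The call of Fos was lost without basal replicate 1 (adjusted p = 0.089) or 2 (0.139) or luminal replicate 1 (0.156) or 2 (0.131).

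**Figure D2:**
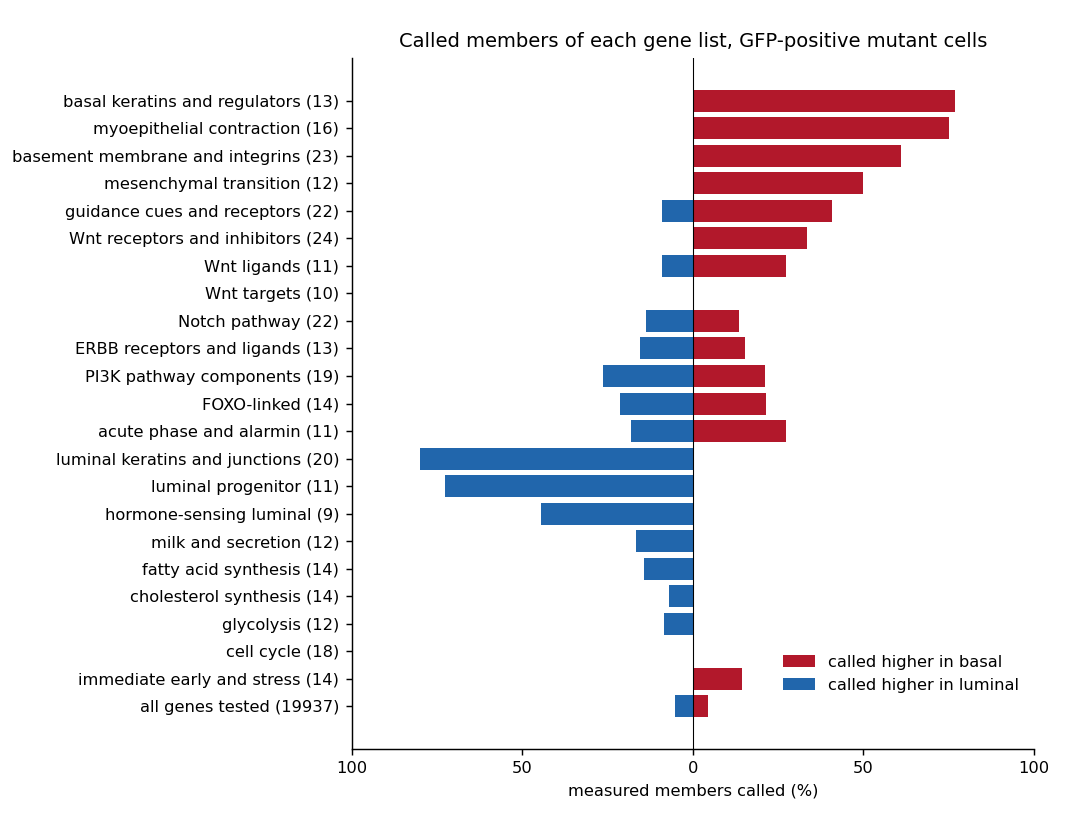
Percent of the measured members of each gene list (number in brackets) called higher in GFP-positive basal cells (red, to the right) or in GFP-positive Sca1-negative luminal cells (blue, to the left). Basal keratins, contraction and basement membrane genes extend to the right only and luminal keratin and progenitor genes to the left only, while the bottom bar gives all 19937 genes tested (4.43% and 5.16%).

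Markers of other cell types were low, with few exceptions. The mean level over 15 immune genes was 3.46 to 3.49 on the basal arrays and 3.50 to 3.60 on the luminal arrays, and 14 of the 15 had a group mean under 5 in each group, the exception being the macrophage-associated Cd68 (5.73 and 6.92). All 11 endothelial, 7 pericyte, 6 adipocyte and 2 erythroid genes had group means under 5 in both groups, as did the 3 Schwann cell genes except Mbp in luminal cells (5.06). The mean level over endothelial genes was 3.47 to 3.51 on the basal and 3.41 to 3.44 on the luminal arrays, and over pericyte genes 3.32 to 3.56 and 3.23 to 3.31. Over adipocyte genes it was 3.58 to 3.72 and 3.60 to 3.62, over Schwann cell genes 3.48 to 3.64 and 3.72 to 3.82, and over erythroid genes 3.42 to 3.55 and 3.53 to 3.67. Flt1 (0.53), Cspg4 (0.74), Mbp (-0.52) and Col6a3 (-0.85) were called at these low levels, and each lost its call without at least 1 array, with the highest adjusted p at 0.161 (Flt1, without basal replicate 1), 0.0609 (Cspg4, without luminal replicate 3), 0.0765 (Mbp, without basal replicate 3) and 0.19 (Col6a3, without luminal replicate 1). The mean level over 10 fibroblast genes was 4.39 to 4.54 on the basal and 4.04 to 4.07 on the luminal arrays. The collagen genes that define fibroblasts, Col1a1 (0.14, adjusted p = 0.541) and Col3a1 (0.06, adjusted p = 0.856), were not called, whereas decorin (Dcn), a matrix proteoglycan, was at 10.84, 10.15 and 10.75 against 7.59, 6.99 and 8.38 (2.93 ± 0.45, adjusted p = 0.000351). Col1a2 was at 4.66, 4.93 and 5.90 against 3.95, 4.20 and 3.87 (1.16 ± 0.22, adjusted p = 0.00244), and was not called in a fit to the 6 arrays alone (adjusted p = 0.0829). The part of these genes in the results was not tested.

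The same lineage difference was measured in control cells on 6 other arrays. In controls 1972 genes were called (9.89%), 931 higher in basal (4.67%) and 1041 higher in luminal cells (5.22%), and 935 genes were called in the same direction in both genotypes. Control lineage genes were taken as called genes with an absolute log2 difference of at least 1. Of the 599 that were higher in control basal cells, 328 (54.8%) were called in the same direction in the transgene-expressing cells, 268 were not called and 3 were called the other way. Of the 678 that were higher in control luminal cells, 381 (56.2%) were called in the same direction, 289 were not called and 8 were called the other way. The sign was kept in 554 of the 599 and in 631 of the 678. The lists were chosen on their control values, which therefore describe the choice and are no test. The median was 1.73 in controls and 1.05 in mutants for basal genes, and -1.55 and -1.02 for luminal genes. Read from the mutant side, 332 of 575 basal genes (57.7%) and 359 of 598 luminal genes (60.0%) were called in the same direction in controls, with medians of 1.71 in mutants and 1.12 in controls, and -1.49 and -1.15. Without basal replicate 2 the kept shares of the control lists were 52.1% and 45.9%. Across the 19937 genes the mutant and control differences had a Pearson correlation of 0.688 and a Spearman correlation of 0.48, a description over genes, which are not independent replicates, from arrays that the comparisons do not share.

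Contractile genes were called higher in basal cells in 12 of 16 cases in mutants and 14 of 16 in controls, with medians of 2.75 and 3.82. Basal keratins and regulators gave 10 and 12 of 13, with medians of 2.07 and 2.91. Luminal keratins and junctions gave 16 and 17 of 20 higher in luminal cells, with medians of -1.46 and -1.84, and luminal progenitor genes gave 8 and 7 of 11. The members called were not all the same. Those called in the same direction in both genotypes numbered 12 contractile, 9 basal keratin and regulator, 16 luminal keratin and junction and 6 progenitor genes. Over all genes, the shares in mutants and controls were 4.43% and 4.67% higher in basal and 5.16% and 5.22% higher in luminal cells. Whether a count differed between genotypes was tested only gene by gene, as the difference of the differences.

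**Figure D3:**
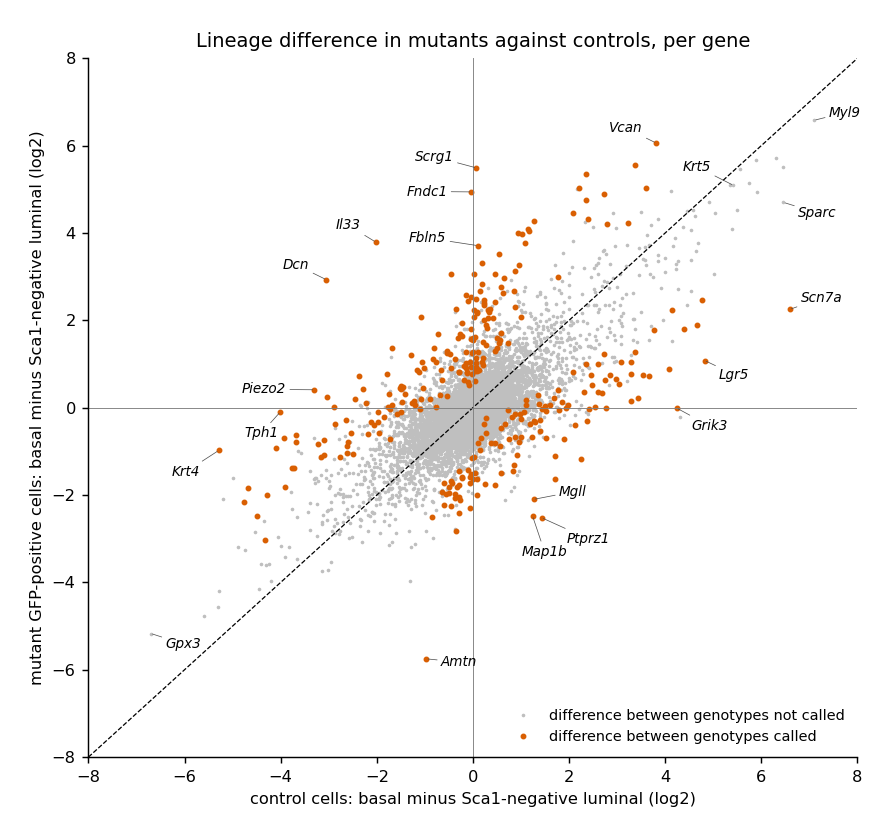
Basal minus Sca1-negative luminal difference per gene in control cells (x axis, log2) and in mutant GFP-positive cells (y axis, log2), with the dashed line marking equal differences. Orange points are the 310 genes whose difference was called as unequal between genotypes; Myl9, Krt5, Sparc and Gpx3 were not among them, while Dcn and Il33 lie at the upper left, where the sign was opposite.

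The lineage difference itself differed between genotypes in 310 genes (1.55%), with 187 in the direction of a higher basal excess in mutants (0.938%) and 123 in the other direction (0.617%). Of the 310, 134 were called in mutants and not in controls, 100 in controls and not in mutants, 62 in both in the same direction, 12 in both in opposite directions and 2 in neither. Among the 599 basal genes of controls, 75 were called here, 62 with a smaller and 13 with a larger difference in mutants. Among the 678 luminal genes of controls, 68 were called, all with a smaller difference in mutants. Both lists were chosen for a large control difference, which favours smaller values in mutants, so these directions are a description. From the mutant side, 109 of the 575 basal and 58 of the 598 luminal genes were called. Contractile genes contributed Lmod1 (-1.95, adjusted p = 0.00232) and Smtn (-1.72, adjusted p = 0.00303), and none of the 20 luminal keratin and junction genes was called by limma in this test (7 had an unadjusted p under 0.05).

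Several genes with a larger basal excess in mutants were at low levels in every other group compared. Scrg1, a small secreted protein gene, was at 9.24, 8.2 and 8.17 in GFP-positive basal cells and at 2.97, 3.19 and 2.95 in their luminal counterparts, and lay at 2.92 to 3.13 on all 6 control arrays (difference between genotypes 5.42, adjusted p = 2.12e-06). Fndc1, a fibronectin domain protein, was at 9.22, 8.48 and 8.03 against 3.62, 3.60 and 3.68, with control means of 3.58 and 3.61 (4.98, adjusted p = 5.66e-07). The elastic fibre protein gene Fbln5 was at 7.97, 7.31 and 7.62 against 3.94, 3.91 and 3.92, with control means of 4.08 and 3.98 (3.61, adjusted p = 1.13e-06). In GFP-negative basal cells of the mutants the means of these genes were 3.60, 3.70 and 4.33. The 3 GFP-positive basal arrays were therefore above all other arrays compared for each of them. Cdh2 followed the same pattern, with a mean of 3.45 in control basal and 3.38 in GFP-negative mutant basal cells (2.61, adjusted p = 0.000457). Il24 differed from them in that mutant luminal cells were also above control luminal cells (5.90, 4.61 and 6.29 against 3.23, 3.80 and 3.77), while its means were 3.14 in control basal and 3.44 in GFP-negative mutant basal cells (3.51, adjusted p = 0.00145).

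In other genes the basal excess was smaller in the mutants. Lgr5 was at 8.35, 8.22 and 8.61 on control basal arrays, at 8.74, 8.40 and 9.16 on GFP-negative mutant basal arrays and at 4.6, 4.05 and 5.55 on GFP-positive basal arrays, with luminal means of 3.58 in controls and 3.66 in mutants (difference between genotypes -3.74, adjusted p = 6.27e-05). The sodium channel gene Scn7a had basal means of 9.70 in controls and 9.35 in GFP-negative mutant cells, and was at 5.75, 6.07 and 4.25 in GFP-positive basal cells (-4.34, adjusted p = 0.000153). The glutamate receptor gene Grik3 had means of 8.35 and 8.47 and was at 3.58, 3.73 and 3.82 in GFP-positive basal cells, level with the luminal arrays at 3.53, 3.63 and 4.01 (-4.25, adjusted p = 1.97e-05). Map1b, a microtubule protein gene, was at 7.23, 5.60 and 5.92 in GFP-positive basal cells against basal means of 9.67 in controls and 10.03 in GFP-negative mutant cells (-3.72, adjusted p = 0.00198). Its luminal means were 8.43 in controls and 8.73 in mutants, so GFP-positive basal cells were the lower ones in mutants. For these 4 genes the GFP-positive basal arrays lay below every control basal array and every GFP-negative mutant basal array.

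Further genes differed on the luminal side. Amtn lay at 9.87, 10.36 and 9.85 in mutant luminal cells and at 4.89, 4.06 and 3.89 in control luminal cells (difference between genotypes -4.79, adjusted p = 3.81e-06). Krt4, a keratin of stratified epithelia, lay at 9.41, 9.35 and 8.50 in control luminal cells and at 4.59, 4.55 and 4.49 in mutant luminal cells, with all basal arrays compared between 3.42 and 3.90 (4.31, adjusted p = 6.42e-07). Tph1, the enzyme of serotonin synthesis, lay at 6.98, 7.34 and 7.94 in control luminal cells and at 3.19, 3.54 and 3.45 in mutant luminal cells (3.91, adjusted p = 1.16e-05). The ion channel gene Piezo2 lay at 6.03, 7.47 and 7.07 in control luminal cells and at 3.88, 4.09 and 4.69 in mutant luminal cells (3.71, adjusted p = 0.0139). Pgr lay at 7.57 to 7.62 in control luminal cells and at 4.84 to 5.05 in mutant luminal cells (2.39, adjusted p = 0.00735). For the luminal arrays compared here, mutant cells were GFP-positive and control cells were not, so genotype and GFP gate cannot be told apart on the luminal side.

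**Figure D4:**
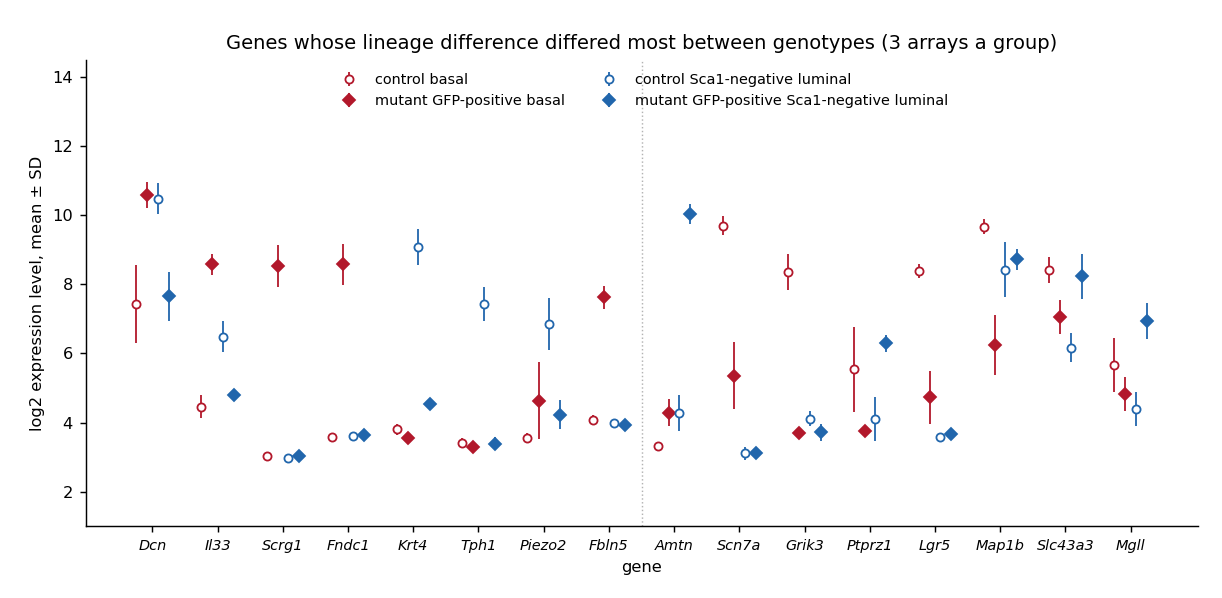
Mean ± SD (3 arrays) of the log2 expression level (y axis) of the 16 genes with the largest difference of lineage differences (x axis), in control basal (open red), mutant GFP-positive basal (filled red), control luminal (open blue) and mutant GFP-positive luminal cells (filled blue). Left of the dotted line mutants had the higher basal minus luminal difference, as for Scrg1 and Fndc1, where filled red stands alone; right of it they had the lower one, as for Lgr5 and Grik3, where open red stands alone.

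The direction was reversed in 12 genes that were called in both genotypes, each of which was also called in the difference between genotypes. Dcn lay at 6.16, 8.24 and 7.90 in control basal and at 10.53, 10.01 and 10.89 in control luminal cells, opposite to its order in the mutants (-3.05 in controls, 2.93 in mutants, difference 5.97, adjusted p = 9.38e-05). Il33 lay at 4.12, 4.48 and 4.78 against 5.95, 6.81 and 6.69 in controls (-2.02 against 3.79, difference 5.81, adjusted p = 2.12e-06). The growth factor gene Vegfa (0.87 in mutants, -1.17 in controls), the deiminase gene Padi2 (0.78, -1.78), Samd5 (1.36, -1.69) and the retinol dehydrogenase gene Dhrs3 (1.20, -1.28) were higher in basal cells of mutants and in luminal cells of controls, as were Fam102b (1.04, -1.06) and 4930523C07Rik (0.90, -1.02). Slc43a3 (-1.17, 2.25), Plekhh2 (-1.10, 1.70), Itprid1 (-1.64, 1.70) and Lxn (-1.09, 0.92) had the opposite order. These 12 were singled out after their values were seen. The mutant call of Slc43a3 was lost without basal replicate 1 (adjusted p = 0.0833) or 2 (0.129) or luminal replicate 1 (0.0585) or 3 (0.147).

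GFP-negative basal cells of the mutants were set against the same 3 luminal arrays, so the values share those arrays and are only given side by side. That comparison called 2175 genes (10.9%), 871 higher in basal (4.37%) and 1304 higher in luminal cells (6.54%). The contractile list gave 14 of 16 higher in basal cells, against 12 for GFP-positive cells, and basal keratins 10 of 13, the same number. Milk genes gave 9 of 12 higher in luminal cells, against 2. The list of acute-phase and alarmin genes, which also holds Amtn, gave 6 of 11, against 2 (Saa3 and Amtn).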

How the data were processed

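The authors deposited 1 table of log2 values for 34760 probe sets, with no value missing, and the unit was read from the values. Per the submitters' processing notes, affy was used. Its version, the normalization and the genome build are not given in the sources used here, and no normalization was added to the deposited log2 values. Of the probe sets, 21640 had a single gene symbol, 1321 had several and 11799 were not listed in the platform table; the last 2 kinds were left out. Matching gene numbers to RefSeq (GRCm38.p6) found 21553 of the former, with 0 symbols updated. The brightest probe set stood for each of 19937 genes (954 had more than 1), with no intensity filter.

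Linear models (lmFit, then eBayes, limma 3.58.1 under R 4.3.3) were fitted to 20 arrays with 7 group means and no block, leaving 13 residual degrees of freedom (prior 2.4). Contrasts were mutant basal minus luminal, the same in controls, their difference, and GFP-negative basal minus luminal. The call threshold was 0.05 on p adjusted by Benjamini-Hochberg in each contrast. On simulated data for the mutant comparison (19937 genes) the fit recovered 74% of log2 changes of 1 and 95% of changes of 2, with 11 false calls. The simulated noise was independent and had the same spread in all groups for a given gene. It therefore checks the code and does not give the power in arrays of unequal spread. The p-values measure the spread between sorted pools. The named genes are the 15 largest called differences in each direction without array overlap, the 8 largest in each direction between genotypes, and members of gene lists (unnamed gene models passed over). Of these, 1 gene is not reported here. The members and lists were chosen with earlier results of these data known, and no set test was run. Alternatives were each array left out, a replicate block, array weights, other scalings and filters, and other gene summaries.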

Additional observations from a re-analysis of the deposited data

Results flagged for a closer look

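The difference between basal and luminal cells was tested for a difference between genotypes, and 310 genes passed. Among the genes named or listed, those with a higher basal minus luminal difference in mutants than in controls were Dcn (5.97), Il33 (5.81), Scrg1 (5.42), Fndc1 (4.98), Krt4 (4.31), Tph1 (3.91), Piezo2 (3.71), Fbln5 (3.61) and Il24 (3.51). The keratin Krt16 (3.15), the Notch ligand Jag1 (2.94), and the matrix, growth factor and secreted genes Matn2 (2.99), Nrg1 (2.96), Epgn (2.90), Fst (2.83), Sfrp1 (2.41) and Vcan (2.26) followed. So did Cdh2 (2.61), Sesn3 (2.54) and Emb (2.17). The hormone-sensing genes Pgr (2.39), Foxa1 (2.35) and Prom1 (2.01) were on the same side because their luminal excess was smaller in mutants. Smaller values were those of Krt15 (1.92), Mfge8 (1.79), Sqle (1.72), Nid1 (1.65), Pik3r3 (1.49), Ppic (1.44), Col7a1 (1.09) and Lama3 (1.0).

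The genes with a lower basal minus luminal difference in mutants were Amtn (-4.79), Scn7a (-4.34), Grik3 (-4.25), Ptprz1 (-3.95), Lgr5 (-3.74), Map1b (-3.72), Slc43a3 (-3.43) and Mgll (-3.37). They also included the Wnt genes Wif1 (-2.25), Lgr6 (-2.11) and Fzd7 (-1.97), the contractile genes Lmod1 (-1.95) and Smtn (-1.72), and Igf1r (-1.86), Itgb3 (-1.44), Slpi (-1.27), Ldha (-1.25) and Fdft1 (-1.18).

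Of these 49 genes, 35 were called under every alternative tried. The other 14 lost the call when some single arrays of the 12 in this test were left out. It was lost in 11 such fits for Lama3 (highest adjusted p = 0.119, without control luminal replicate 3), 10 for Foxa1 (0.099, without control luminal replicate 1), 10 for Fst (0.122, without control luminal replicate 2), 10 for Ldha (0.0993, without control luminal replicate 2) and 10 for Nid1 (0.0881, without GFP-positive basal replicate 2). It was lost in 9 for Nrg1 (0.0754, without mutant luminal replicate 2), 9 for Sqle (0.11, without control luminal replicate 1), 8 for Itgb3 (0.0913, without control luminal replicate 1), 8 for Slpi (0.0802, without GFP-positive basal replicate 2) and 7 for Fdft1 (0.0673, without mutant luminal replicate 2). The fewest losses were 6 for Wif1 (0.0581, without mutant luminal replicate 3), 5 for Vcan (0.0592, without mutant luminal replicate 1), 3 for Krt15 (0.0535, without mutant luminal replicate 3) and 2 for Pik3r3 (0.0513, without mutant luminal replicate 2). Under the other alternatives, higher adjusted p-values than these were reached by Fdft1 (0.296, at -0.69, with the mean of probe sets), Itgb3 (0.127, fitted to the compared arrays alone), Lama3 (0.124, with a trended and robust prior) and Krt15 (0.068, fitted to the compared arrays alone).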

How the results depend on the processing

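No sign changed among the 165 lineage and 49 genotype calls of named or listed genes under the alternatives run. The larger side of the lineage calls did change: against 883 basal and 1028 luminal genes, quantile normalization gave 935 and 866, array weights 1154 and 1126, and the fit without basal replicate 2 gave 863 and 699. The count of 1911 genes lay between 1434 and 1767 with 1 of the 6 arrays left out and between 1409 and 2280 under the other alternatives. The 883 genes higher in basal cells became 689 to 863 with 1 array left out and 503 when genes with a mean level under 5 were dropped, which tests fewer genes. The 1028 genes higher in luminal cells became 699 to 922 with 1 array left out, and the 310 genes that differed between genotypes 223 to 293 (214 to 423 under the other alternatives). The kept shares of control lineage genes, 54.8% (basal) and 56.2% (luminal), lay at 46.9% to 58.5% and 45.9% to 58.6% with 1 array left out, and at 44.9% to 62.3% and 49.7% to 63.0% under the other alternatives. The replicate numbers were not taken to pair arrays, since the deviations of basal and luminal arrays of the same number correlated by 0.028, 0.103 and 0.064; each basal array still correlated best with the luminal array of its own number. With the replicate block 1954 genes were called, 891 and 1063 by direction, and 302 between genotypes. Of 165 calls of named or listed genes, 126 held under every alternative and 39 were lost under at least 1. Of 495 counts of list members under an alternative, 429 stayed within 1.5 times the reported count. Low signal limits genes near the array medians, where a probe set may not reach background.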
